A study of Mus musculus with 12 samples.

Results

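Zfp900 to Zfp999 are recently numbered mouse zinc finger genes, and 34 of them were measured here among 19938 genes. They were chosen by name alone, as array features whose only gene symbol was Zfp9 followed by 2 digits, with the feature of the highest mean kept for each gene and no filter on signal. Their transcripts were measured on 12 single-channel arrays, 2 for each of 6 groups, in embryoid bodies (EBs) and embryonic stem cells (ESCs) of mouse. EBs, aggregates grown in suspension without leukaemia inhibitory factor, were taken at day 7 from cells lacking HP1β (HP1βKO, Cbx1-/-, line label R1), from cells lacking HP1α (HP1αKO, Cbx5-/-, line label R1) and from WT cells (line label HM1). ESCs of the same HP1βKO, HP1αKO and WT lines were grown on a layer of growth-arrested embryonic fibroblasts and purified with magnetic beads for the surface antigen SSEA1. No group received a treatment. Since both knockouts carry a line label other than that of WT, knockout and line cannot be told apart, although the methods call the WT line a littermate control. Levels are given as log2 signals after robust multi-array averaging (RMA), so that a difference of 1 is 2-fold.

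Most genes of this kind encode proteins with a row of C2H2 zinc fingers, many of them behind a KRAB domain. KRAB zinc finger proteins bind DNA, often inside retrotransposons, and recruit the co-repressor TRIM28, which brings the histone methyltransferase SETDB1 and HP1 proteins to the site. The family expands by local duplication, so that its genes lie in clusters of near copies, and probes of 1 copy may also pick up RNA of another. Values of close copies are therefore uncertain as to their source.

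Of the 12 libraries, those labelled ESC WT 2 and ESC HP1αKO 2 had Cbx5 signals opposite to their labels: 8.04 and 9.995 in the libraries labelled ESC HP1αKO, against 9.66 and 8.29 in those labelled ESC WT. Cbx1 was 7.59 to 7.99 in all 4 HP1βKO libraries and 9.37 to 10.05 in the other 8. Counts and calls of the members that change without these 2 libraries are also given without them. Fits without them keep 1 library in ESC WT and 1 in ESC HP1αKO, so that their calls take the spread from the other groups. Replicates were less alike in ESCs than in EBs, with a standard deviation of the difference between replicates of 0.39 to 0.57 over 10880 genes in ESC groups and 0.13 to 0.20 in EB groups. The fit used 1 shared spread per gene over all 12 arrays, and p-values measure only the spread between these libraries. Where values of 2 groups are said not to overlap, the share of all genes for which that holds was not counted.

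The 34 genes lie on 11 chromosomes of the GRCm38.p6 RefSeq annotation, with 10 on chromosome 17, 6 each on chromosomes 4 and 7, and 3 on chromosome 8. They are 34 of the 62 genes with such names in that annotation, and 27 further array features that name such a gene together with others were not counted as members. The mean level over 12 arrays ran between 3.01 for Zfp950 on chromosome 19 and 8.68 for Zfp971 on chromosome 2, with a median of 5.63, against 5.92 for the 283 genes Zfp1 to Zfp899 and 5.30 for all genes. A signal of 45 (log2 5.49), the floor of the study's methods, was exceeded on all 12 arrays by 10 members, on some by 10 and on none by 14. The 20 members above it at least once (58.8% of 34, against 72.8% of Zfp1 to Zfp899 and 54.6% of all genes) were tested, and the other 14 are described by level only or in a fit without a floor. Among the tested members, Zfp951 passed the floor through 1 library alone, in a group where it was high.

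The range over the 12 arrays had a median of 0.99 and was under 1 for 17 of 34 members. Ranges of all genes were not computed, so these are not set against other genes. Several of the 17, such as Zfp950, Zfp957 and Zfp933, lay under the floor on all 12 arrays. Zfp971 was the brightest and ranged over 0.53, at 8.79 and 8.70 in EB HP1βKO, 8.91 and 8.90 in EB HP1αKO, 8.64 and 8.78 in EB WT, 8.65 and 8.81 in ESC HP1βKO, 8.45 and 8.63 in ESC HP1αKO, and 8.38 and 8.56 in ESC WT. Only 5 members ranged over more than 2, and 4 of these (Zfp980, Zfp979, Zfp991 and Zfp982) belong to 1 stretch of chromosome 4. The fifth was Zfp951 on chromosome 5.

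**Figure D1:**
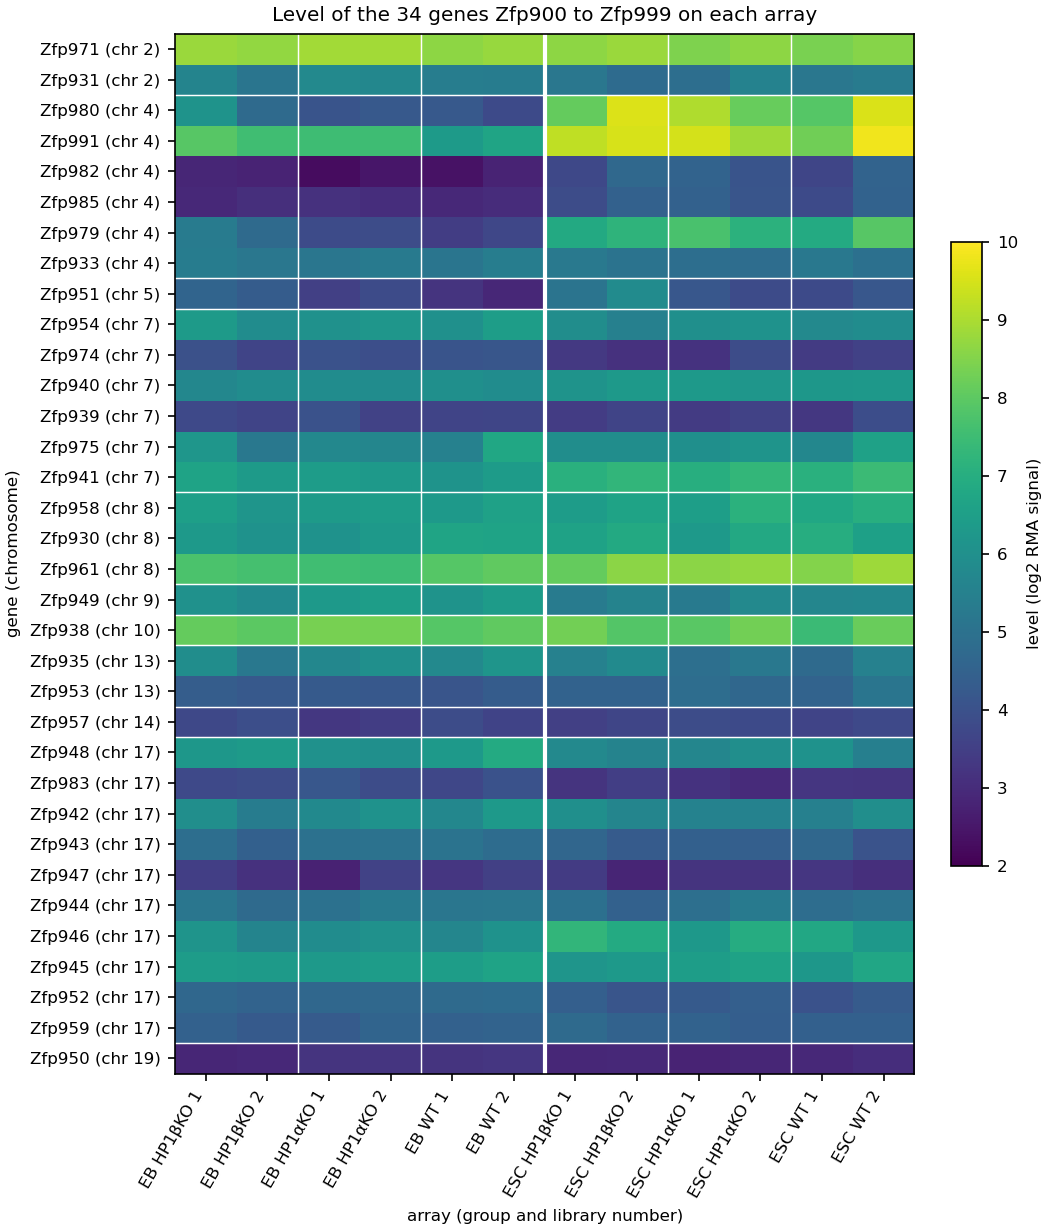
Level (log2 RMA signal, colour) of each of the 34 genes (rows, by chromosome) on each of the 12 arrays (columns, EBs left of ESCs). The rows that change colour between EBs and ESCs are Zfp980, Zfp979, Zfp991, Zfp982 and Zfp985 on chromosome 4, while Zfp971, at 8.38 to 8.91, hardly changes.

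The 6 members on chromosome 4 lie in 1 stretch of 77 RefSeq genes that holds 14 of the Zfp900 to Zfp999 genes. Upstream sequence was at hand for Zfp980, Zfp985, Zfp979, Zfp982 and Zfp933 (RefSeq, GRCm38.p6), and the 250 bases that end just before each annotated start are shown because 4 of them are copies of each other and the fifth is not. All 4 share 2 stretches of 21 bases and none longer, and capitals mark the first of these. Of the 3 starts listed for Zfp982, the one most like Zfp980 is shown. The positions are chr4:145670447-145670696 (+ strand), chr4:147553027-147553276 (+ strand), chr4:147642509-147642758 (- strand), chr4:147492167-147492416 (+ strand) and chr4:147848419-147848668 (- strand).
Zfp980: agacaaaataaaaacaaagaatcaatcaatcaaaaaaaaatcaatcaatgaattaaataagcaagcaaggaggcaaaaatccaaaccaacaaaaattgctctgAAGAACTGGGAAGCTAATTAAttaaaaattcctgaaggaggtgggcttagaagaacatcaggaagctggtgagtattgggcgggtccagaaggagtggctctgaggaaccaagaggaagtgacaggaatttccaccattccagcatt
Zfp985: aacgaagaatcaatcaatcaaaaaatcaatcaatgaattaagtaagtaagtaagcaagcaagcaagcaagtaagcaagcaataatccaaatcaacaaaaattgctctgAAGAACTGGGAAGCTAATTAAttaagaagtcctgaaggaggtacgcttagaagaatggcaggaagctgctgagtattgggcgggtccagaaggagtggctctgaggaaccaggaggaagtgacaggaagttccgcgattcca
Zfp979: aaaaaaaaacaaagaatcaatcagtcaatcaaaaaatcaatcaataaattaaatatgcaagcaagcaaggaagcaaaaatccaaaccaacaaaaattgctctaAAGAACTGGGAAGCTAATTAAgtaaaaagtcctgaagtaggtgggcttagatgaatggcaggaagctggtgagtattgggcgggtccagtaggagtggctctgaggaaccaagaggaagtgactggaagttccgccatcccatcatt
Zfp982: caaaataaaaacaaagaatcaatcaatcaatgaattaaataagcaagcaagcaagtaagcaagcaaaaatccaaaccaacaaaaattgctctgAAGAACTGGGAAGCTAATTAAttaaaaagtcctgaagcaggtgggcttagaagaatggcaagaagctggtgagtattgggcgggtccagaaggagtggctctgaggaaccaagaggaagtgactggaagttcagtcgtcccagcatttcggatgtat
Zfp933: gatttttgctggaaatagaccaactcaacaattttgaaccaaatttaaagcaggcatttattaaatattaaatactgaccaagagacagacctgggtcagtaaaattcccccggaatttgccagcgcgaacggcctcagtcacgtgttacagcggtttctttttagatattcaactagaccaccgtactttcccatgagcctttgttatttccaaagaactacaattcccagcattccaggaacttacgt
The first 4 sequences were 79.6% to 89% identical to each other in global alignment, and Zfp933 was 48.8% to 51.2% identical to them. Upstream sequences of 27 members on other chromosomes were 44.2% to 53.2% identical to that of Zfp980, a range that holds the value of Zfp933 (51.2%). Each of the 2 shared stretches occurred in the same 9 of 32851 upstream windows of 250 bases (gene strand), all on chromosome 4, namely those of these 4 members and of Rex2, Zfp534, Zfp600, Zfp987 and Zfp988. On either strand, all 4 held a GC box (GGGCGG, in 32.7% of all windows), a CCAAT box (CCAAT, 33.8%) and the ETS-type letters AGGAAGT (7.7%), and none held TATAAA (12.4%) or the octamer ATGCAAAT (1.6%). Zfp933 held none of the 5. In all 4 copies a CCAAT box on the reverse strand overlapped the GC box by 2 bases. These motifs were chosen after the sequences were seen, the 4 windows are near copies and not independent, and a match is not a binding site.

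Zfp980 had the largest difference between EBs and ESCs of all members in each genotype. Its level was 6.11 and 4.77 in EB HP1βKO, 4.08 and 4.22 in EB HP1αKO, and 4.25 and 3.79 in EB WT, against 8.11 and 9.57 in ESC HP1βKO, 9.05 and 8.13 in ESC HP1αKO, and 7.91 and 9.55 in ESC WT. All 6 EB libraries lay below all 6 ESC libraries, and 5 of the 6 EB values were below the floor. The EB minus ESC difference was -3.40 ± 0.65 (SE) in HP1βKO (adjusted p = 0.0036), -4.44 ± 0.65 in HP1αKO (adjusted p = 0.00078) and -4.71 ± 0.65 in WT (adjusted p = 0.00073), with 1 of 2, 0 of 2 and 0 of 2 EB libraries above the floor. With each EB value under the floor set to it, Zfp980 was at least 8.22-fold, 8.55-fold and 9.41-fold lower in EBs. The calls held in all 4 fits that left out 1 library of the comparison, in each genotype.

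Zfp979 (Ssm1b in older naming), which encodes a KRAB zinc finger protein known for strain-specific DNA methylation of a transgene in early mouse embryos, behaved alike. It stood at 5.32 and 4.76 in EB HP1βKO, 3.83 and 3.85 in EB HP1αKO, and 3.46 and 3.71 in EB WT, against 6.85 and 7.21 in ESC HP1βKO, 7.70 and 7.14 in ESC HP1αKO, and 6.90 and 7.94 in ESC WT. Every EB library was under the floor and every ESC library above it. The difference was -1.99 ± 0.34 in HP1βKO (adjusted p = 0.0019), -3.58 ± 0.34 in HP1αKO (adjusted p = 6.02e-05) and -3.83 ± 0.34 in WT (adjusted p = 4.98e-05), which against the floor is at least 2.90-fold, 3.80-fold and 3.80-fold lower in EBs. These calls, too, held in all 4 fits without 1 library in each genotype.

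Zfp991 was the brightest of the group and stayed above the floor in EBs. It had 7.92 and 7.55 in EB HP1βKO, 7.53 and 7.51 in EB HP1αKO, and 6.36 and 6.66 in EB WT, against 9.23 and 9.51 in ESC HP1βKO, 9.50 and 8.85 in ESC HP1αKO, and 8.26 and 9.83 in ESC WT. The EB and ESC values did not overlap in any genotype. The EB minus ESC difference was -1.63 ± 0.43 in HP1βKO (adjusted p = 0.016), -1.66 ± 0.43 in HP1αKO (adjusted p = 0.013) and -2.54 ± 0.43 in WT (adjusted p = 0.0020). With 1 library left out the call held in 2 of 4 fits in HP1βKO, 1 of 4 in HP1αKO and 4 of 4 in WT.

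Zfp982 and Zfp985 were dim, with every library under the floor, yet kept the same order. Zfp982, linked in mouse ESCs to expression of Nanog, had 2.86 and 2.80 in EB HP1βKO, 2.25 and 2.49 in EB HP1αKO, and 2.40 and 2.80 in EB WT, against 3.75 and 4.71 in ESC HP1βKO, 4.55 and 4.07 in ESC HP1αKO, and 3.66 and 4.55 in ESC WT. Zfp985 had 2.93 to 3.13 in the 6 EB libraries and 3.79 to 4.51 in the 6 ESC libraries. In the fit without a floor, Zfp982 had EB minus ESC differences of -1.40, -1.94 and -1.51 in HP1βKO, HP1αKO and WT (adjusted p = 0.017, 0.0028 and 0.013), and Zfp985 of -1.18, -1.21 and -1.19 (adjusted p = 0.0095, 0.0071 and 0.0099). That fit called 8.1%, 9.76% and 8.08% of all 19938 genes lower in these 3 comparisons. All these values lie in the range that the study's methods take as background.

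Zfp933, in the same stretch, did not keep this order. It had 5.36 and 5.19 in EB HP1βKO, 5.15 and 5.27 in EB HP1αKO, and 5.10 and 5.38 in EB WT, against 5.23 and 5.04 in ESC HP1βKO, 4.88 and 4.85 in ESC HP1αKO, and 5.20 and 4.96 in ESC WT. All 12 values lay under the floor within 0.53 of each other. The EB minus ESC difference without a floor was 0.14 in HP1βKO, 0.35 in HP1αKO and 0.16 in WT (adjusted p = 0.60, 0.12 and 0.54). Whether upstream sequence has a part in the levels of these genes was not tested, and no upstream sequence was at hand for Zfp991.

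**Figure D2:**
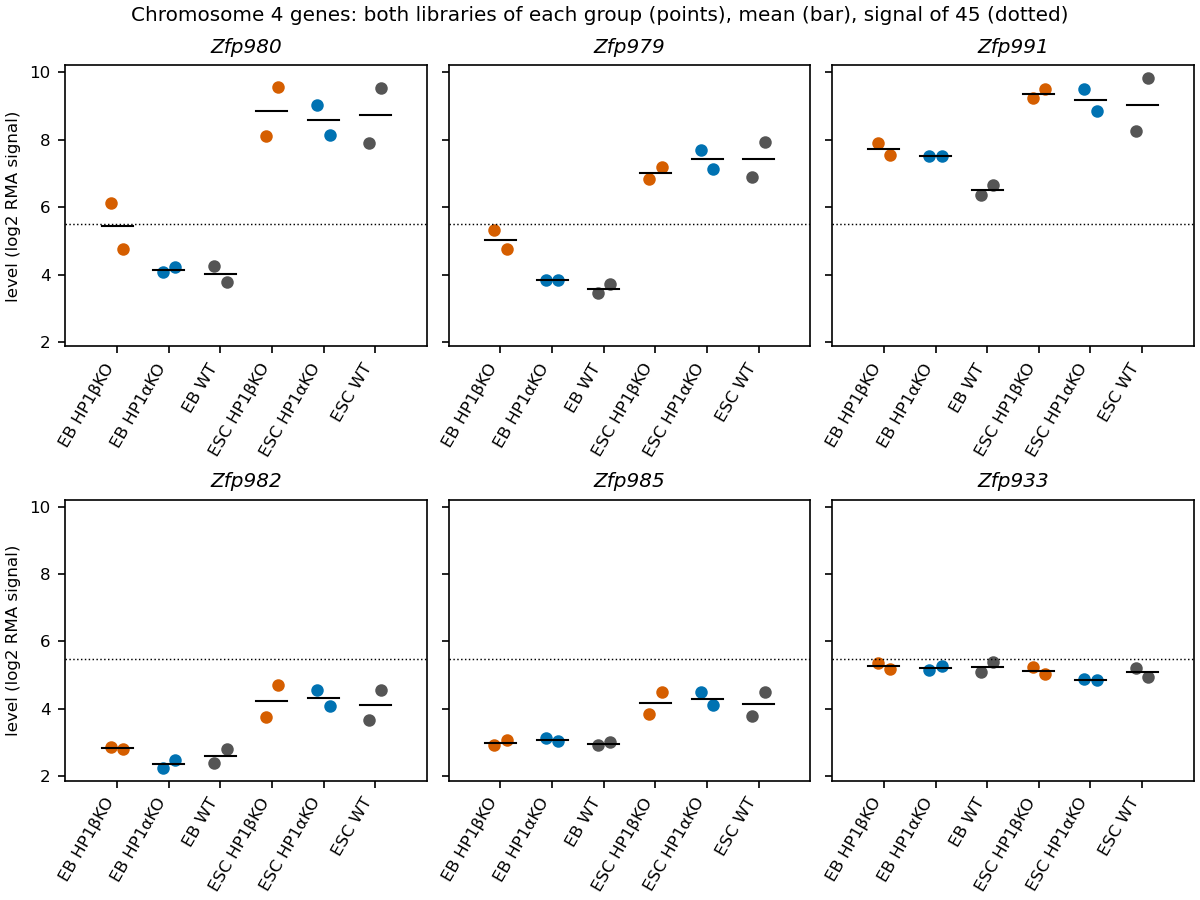
Level (log2 RMA signal) of the 6 chromosome 4 members in both libraries of each group (points, library 1 on the left; bar, group mean; dotted line, signal of 45). For Zfp980, Zfp979, Zfp991, Zfp982 and Zfp985 every EB point lies below every ESC point of its genotype, and Zfp933 stays between 4.85 and 5.38.

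Only 2 non-members of that stretch were measured by a feature of their own. Zfp600, a neighbouring zinc finger gene, had 3.60 and 3.75 in EB HP1βKO, 2.71 and 2.23 in EB HP1αKO, and 2.66 and 3.02 in EB WT, against 4.77 to 6.41 in the 6 ESC libraries. Its difference between EB WT and ESC WT was -2.55 (adjusted p = 0.0019). Zfp600 passed the floor in ESC libraries alone, the high side of this comparison, so its call adds no support. In ESC WT only the library labelled ESC WT 2 passed it, at 6.01, against 4.77 in ESC WT 1. Rps19-ps3, a ribosomal protein pseudogene there, differed by 0.25 (adjusted p = 0.22), at 6.11 and 6.06 in EB WT, against 5.98 and 5.70 in ESC WT.

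The 6 array features shared by several genes of the stretch had the same order. The feature shared by Rex2, Zfp981, Zfp980, Zfp600, Zfp987 and Zfp979 gave 8.28 and 8.15 in EB HP1βKO, 5.86 and 5.93 in EB HP1αKO, and 6.57 and 6.96 in EB WT, against 10.23 and 11.12 in ESC HP1βKO, 10.94 and 10.27 in ESC HP1αKO, and 9.69 and 11.09 in ESC WT. Over the 6 features the EB minus ESC difference of means ran between -2.46 and -1.15 in HP1βKO, -4.71 and -1.64 in HP1αKO, and -3.63 and -2.16 in WT. These features pool probes of 5 to 13 gene symbols, so their values cannot be assigned to 1 gene, and they were not tested.

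Libraries of 1 ESC group differed in these genes as well. The library labelled ESC WT 2 exceeded ESC WT 1 by 1.64 for Zfp980, 1.58 for Zfp991, 1.03 for Zfp979, 0.89 for Zfp982 and 0.72 for Zfp985. ESC HP1αKO ran the other way, with the library labelled ESC HP1αKO 2 lower by 0.92, 0.65, 0.56, 0.48 and 0.38 for the same genes. In both groups the library with the lower Cbx5 signal had the higher levels of all 5 genes. In ESC HP1βKO, where Cbx5 was 9.73 and 9.88, the second library was higher by 0.28 to 1.46. Cbx1 shifted with the same sign as these genes in all 3 groups, by 0.56 in ESC WT, -0.42 in ESC HP1αKO and 0.40 in ESC HP1βKO (second minus first library). Of the listed partners of KRAB zinc finger proteins, Zfp809, Smarcad1, Atf7ip and Trim28 did so too, and the others measured did not. Of the 10 pluripotency markers listed, Nr0b1 alone did so. The share of all genes that did so was not counted. The part of Cbx1 or Cbx5 was not tested. Without the 2 libraries whose Cbx5 opposed the label, Zfp980, Zfp979 and Zfp991 were still called lower in EBs in all 3 genotypes, with differences of -3.40, -1.99 and -1.63 in HP1βKO, -4.89, -3.86 and -1.98 in HP1αKO, and -3.89, -3.32 and -1.75 in WT.

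Like these genes, pluripotency markers were on average lower in EBs than in ESCs. The mean log2 level of 10 markers (among them Pou5f1, Nanog and Esrrb) was 7.43 and 7.59 in the EB HP1βKO libraries, 5.78 to 5.91 in EB HP1αKO and 6.49 to 6.73 in EB WT, against 9.58 to 9.97 in ESC HP1βKO, 9.98 to 10.4 in ESC HP1αKO and 9.69 to 10.5 in ESC WT. Of the 10, 9, 10 and 10 fell in EBs of HP1βKO, HP1αKO and WT. Fibroblast markers (11 genes) averaged 7.81 to 7.94, 7.78 to 7.80 and 6.90 to 6.98 in EB HP1βKO, HP1αKO and WT, against 4.81 to 6.70 in ESC libraries, the highest in ESC WT 1. Of the 10 of them tested, 6, 7 and 5 were called higher in EBs of HP1βKO, HP1αKO and WT. Thy1 went the other way and was called lower in HP1αKO and WT, with differences of -1.71 and -2.04. Of 6 markers of two-cell-like ESCs, 3 (Tcstv3, Usp17lc and Zfp352) had an array feature with their symbol alone, and 0 of these passed the floor in any library. Features shared with other genes were not searched for the rest, Zscan4c, Zscan4d and Tcstv1. Whether these cell-type differences have a part in the levels of the chromosome 4 genes was not tested, and in bulk RNA fewer cells of a type and less RNA per cell cannot be told apart.

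The comparison of EBs with ESCs asks which genes change as the cells differentiate. Among the 20 members tested, 8 fell and 0 rose in EB HP1βKO against ESC HP1βKO, 6 fell and 1 rose in EB HP1αKO against ESC HP1αKO, and 6 fell and 2 rose in EB WT against ESC WT (limma, Benjamini-Hochberg over 10880 genes, threshold 0.05). The shares of all genes tested were 15.1% lower and 22% higher in HP1βKO, 16.5% and 25% in HP1αKO, and 14.2% and 22% in WT. Among the 206 genes Zfp1 to Zfp899 tested, 23 fell and 50 rose in HP1βKO, 27 and 54 in HP1αKO, and 20 and 54 in WT. The median difference of the 20 members was -0.20, -0.34 and -0.04 in HP1βKO, HP1αKO and WT, against 0.04, 0.05 and 0.05 for all genes tested. The 8 falls in HP1βKO include Zfp951, which entered the test only through the library labelled ESC HP1βKO 2, the high side of that comparison. Without the 2 libraries of opposing Cbx5, 9 members fell and 2 rose in HP1βKO (23.3% and 30.2% of all genes), 6 fell and 4 rose in HP1αKO (18.9% and 30.5%), and 5 fell and 2 rose in WT (14% and 25.2%). The members that rose there were Zfp948 and Zfp949 in HP1βKO, Zfp931, Zfp935, Zfp949 and Zfp971 in HP1αKO, and Zfp935 and Zfp949 in WT, and Zfp930 was the fall gained in HP1βKO. Over all 34 members, tested or not, the medians were -0.08, -0.01 and 0.06. Single libraries moved the counts: without EB HP1βKO replicate 2 or ESC HP1βKO replicate 2, 2 and 3 members were called in HP1βKO, without EB HP1αKO replicate 2, 4 in HP1αKO, and without EB WT replicate 1, EB WT replicate 2 or ESC WT replicate 2, 5, 4 and 5 in WT.

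Zfp980, Zfp979, Zfp991, Zfp941 and Zfp961 fell in all 3 genotypes, 5 of 20, where 8.48% of all genes tested did so, and without the 2 opposing libraries 4 of 20 did (all but Zfp961), where 9.87% did. Zfp980, Zfp979 and Zfp991 are neighbours on chromosome 4 whose probes may pick up RNA of each other, so they are not separate counts to set beside these shares. Zfp979 passed the floor through ESC libraries alone, the high side of these comparisons. Zfp941, on chromosome 7, had 6.65 and 6.36 in EB HP1βKO, 6.41 and 6.34 in EB HP1αKO, and 6.10 and 6.40 in EB WT, against 7.07 and 7.28 in ESC HP1βKO, 7.01 and 7.30 in ESC HP1αKO, and 7.07 and 7.44 in ESC WT. It was above the floor everywhere, and its EB and ESC values did not overlap. The differences were -0.67 ± 0.19 in HP1βKO (adjusted p = 0.020), -0.78 ± 0.19 in HP1αKO (adjusted p = 0.0091) and -1.01 ± 0.19 in WT (adjusted p = 0.0032), called in 2, 3 and 4 of the 4 fits that left out 1 library.

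Zfp961, on chromosome 8, was among the brightest members, at 7.74 and 7.65 in EB HP1βKO, 7.54 and 7.50 in EB HP1αKO, and 7.89 and 8.04 in EB WT, against 8.12 and 8.61 in ESC HP1βKO, 8.62 and 8.69 in ESC HP1αKO, and 8.52 and 8.84 in ESC WT. Here the EB values of both knockouts lay below those of WT. The EB minus ESC difference was -0.68 ± 0.18 in HP1βKO (adjusted p = 0.016), -1.14 ± 0.18 in HP1αKO (adjusted p = 0.0011) and -0.71 ± 0.18 in WT (adjusted p = 0.014). The fits without 1 library kept the call in 1 of 4, 4 of 4 and 1 of 4 cases. Without the 2 opposing libraries the WT difference was -0.55 (adjusted p = 0.058).

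The remaining falls were called in 1 or 2 genotypes, and none of them held in all fits that left out 1 library (Zfp940 in 1 of 4 in HP1βKO and 0 of 4 in HP1αKO, Zfp946 in 2 of 4). Zfp940, on chromosome 7, differed by -0.41 in HP1βKO and -0.37 in HP1αKO (adjusted p = 0.033 and 0.043) and by -0.32 in WT (adjusted p = 0.079), with 5.72 to 5.98 in all EB libraries and 6.09 to 6.33 in all ESC libraries. Zfp946, on chromosome 17, had 6.13 and 5.60 in EB HP1βKO, against 7.27 and 6.90 in ESC HP1βKO, a difference of -1.23 ± 0.29 (adjusted p = 0.0096). In HP1αKO and WT its difference was -0.65 in each (adjusted p = 0.099 and 0.11), and without the 2 opposing libraries -0.31 and -0.91 (adjusted p = 0.36 and 0.030), so that it was then called in WT.

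Zfp948 and Zfp949 were the members called higher in EBs. Zfp949 (also Nczf), on chromosome 9, had 6.05 and 5.83 in EB HP1βKO, 6.32 and 6.45 in EB HP1αKO, and 6.12 and 6.41 in EB WT, against 5.34 and 5.57 in ESC HP1βKO, 5.31 and 5.77 in ESC HP1αKO, and 5.68 and 5.69 in ESC WT. The groups did not overlap within a genotype, with differences of 0.48 (adjusted p = 0.065), 0.85 (adjusted p = 0.0058) and 0.58 (adjusted p = 0.035) in HP1βKO, HP1αKO and WT. Zfp948, on chromosome 17, rose by 0.84 ± 0.24 in WT (adjusted p = 0.024), at 6.31 and 6.90 in EB WT, against 6.08 and 5.45 in ESC WT. Without 1 library the calls of Zfp949 held in 4 of 4 fits in HP1αKO and 0 of 4 in WT, and that of Zfp948 in 2 of 4. Without the 2 opposing libraries the Zfp948 difference was 0.52 (adjusted p = 0.10). In HP1βKO and HP1αKO Zfp948 differed by 0.62 and 0.21, neither past the threshold on 12 arrays. Without the 2 libraries Zfp948 and Zfp949 were called in HP1βKO, with the same differences of 0.62 and 0.48 (adjusted p = 0.022 and 0.024).

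Chromosome 17, with 10 members, held only the calls of Zfp946 and Zfp948. Zfp983 and Zfp952 there were dim, at 2.97 to 4.16 and 4.02 to 4.79, and without a floor Zfp983 was higher in EBs in HP1αKO and WT and Zfp952 in WT. Zfp938 on chromosome 10, among the 4 brightest members together with Zfp971, Zfp991 and Zfp961, had 8.10 and 7.98 in EB HP1βKO, 8.37 and 8.34 in EB HP1αKO, and 7.90 and 8.05 in EB WT, against 8.31 and 7.86 in ESC HP1βKO, 7.96 and 8.30 in ESC HP1αKO, and 7.45 and 8.18 in ESC WT, with no call in any genotype.

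**Figure D3:**
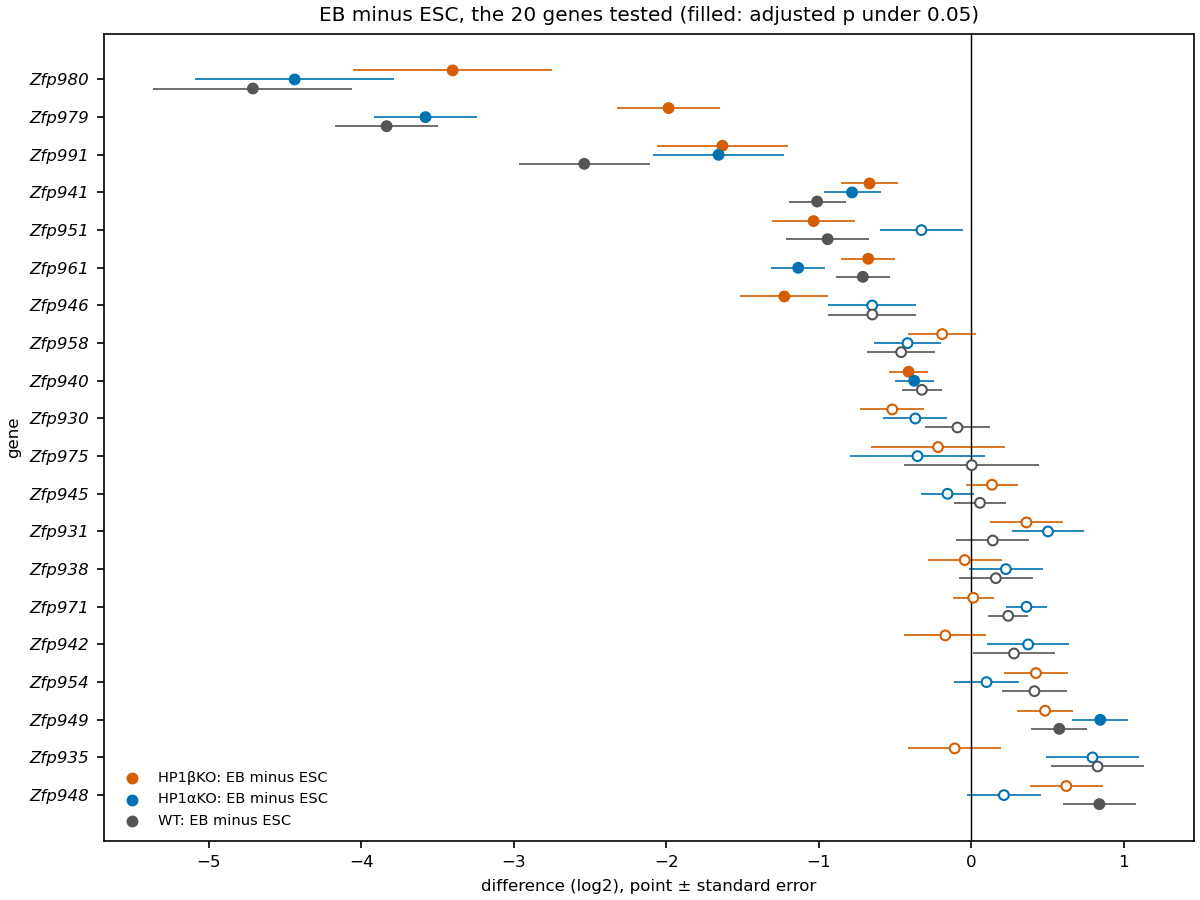
EB minus ESC difference (log2, point ± SE) of the 20 members tested, in HP1βKO, HP1αKO and WT. Filled points passed an adjusted p of 0.05. Zfp980, Zfp979 and Zfp991 have the 3 lowest values in WT (-4.71, -3.83 and -2.54), and the HP1βKO points of Zfp980 and Zfp979 (-3.40 and -1.99) lie nearer 0.

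The comparison of each knockout with WT in EBs asks how loss of an HP1 protein bears on differentiated cells. In EB HP1βKO 1 of 20 members was called against EB WT, where 3.24% of all genes tested were, and in EB HP1αKO 0 of 20, where 1.24% were. At an unadjusted p under 0.05 in limma there were 3 and 4 members, 12.6% and 8.35% of all genes being so. Both comparisons share the EB WT libraries. The median difference of the 20 members was -0.11 in EB HP1βKO and 0.02 in EB HP1αKO, against -0.01 and 0.03 for all genes tested.

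The member called was Zfp951 on chromosome 5. It had 4.57 and 4.31 in EB HP1βKO and 3.52 and 3.82 in EB HP1αKO, against 3.20 and 2.90 in EB WT. The 3 EB groups did not overlap, but all 6 values were below the floor, and the gene entered the test only through 1 ESC library. The log2 signal of EB HP1βKO exceeded that of EB WT by 1.39 ± 0.27 (adjusted p = 0.024), and that of EB HP1αKO did by 0.62 ± 0.27 (adjusted p = 0.58). No fold is given, since both sides lie in the range taken as background. Leaving out any 1 of the 4 libraries of EB HP1βKO and EB WT ended the call, with differences of 1.24 to 1.54.

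In ESCs Zfp951 had 5.08 and 5.87 in HP1βKO and 4.18 and 3.81 in HP1αKO, against 3.81 and 4.18 in WT. The 2 ESC HP1βKO values were the highest of all 12, and the second, 5.87, was the only one above the floor. ESC HP1βKO exceeded ESC WT by 1.48 ± 0.27 (adjusted p = 0.41). The library that let the gene pass the floor is on the high side of that comparison, so the difference adds no support to the call in EBs. Against ESCs of its own genotype Zfp951 differed in EBs by -1.03 in HP1βKO (adjusted p = 0.015), by -0.33 in HP1αKO (short of the threshold) and by -0.94 in WT (adjusted p = 0.023). In HP1βKO the library that let the gene pass the floor is part of the comparison, so its call there supports nothing, and in HP1αKO and WT all values lie under the floor. Without 1 library the call held in 2 of 3 fits in HP1βKO, the fourth leaving it under the floor, and in 1 of 4 in WT. Without the 2 opposing libraries the WT difference was -0.76 (adjusted p = 0.090).

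The 3 chromosome 4 members tested stood above EB WT in EB HP1βKO, short of the threshold. Zfp979 was higher by 1.46 ± 0.34 (adjusted p = 0.052), Zfp980 by 1.42 ± 0.65 (adjusted p = 0.41) and Zfp991 by 1.23 ± 0.43 (adjusted p = 0.23). The values of EB HP1βKO and EB WT did not overlap for these 3. They did not overlap for other uncalled members either, among them Zfp930, Zfp961 and Zfp949, which were lower in EB HP1βKO. For Zfp980 the 2 EB HP1βKO libraries differed by 1.35, about the size of the difference from WT. All 4 values of Zfp979 and 3 of 4 of Zfp980 lie under the floor, and only Zfp991 was above it in both groups. In EB HP1αKO, Zfp991 was higher than in EB WT by 1.01 ± 0.43 (adjusted p = 0.55), while Zfp979 and Zfp980 differed by 0.26 and 0.14. Zfp982 and Zfp985, without a floor, differed by 0.23 and 0.04 in EB HP1βKO and by -0.23 and 0.12 in EB HP1αKO.

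The calls of these 3 changed with the arrays in the fit. With the 6 EB arrays alone, whose replicates were closer, Zfp980 and Zfp991 passed in EB HP1βKO (adjusted p = 0.034 and 0.0011) and Zfp991 in EB HP1αKO (adjusted p = 0.0046), in a fit that called 19.8% and 13% of all genes. Without the 2 opposing ESC libraries, Zfp979 and Zfp991 passed in EB HP1βKO (adjusted p = 0.0044 and 0.0041) and Zfp991 in EB HP1αKO (adjusted p = 0.017), where 9.08% and 4.16% of all genes were called. Zfp930, a chromosome 8 member at 6.34 and 6.08 in EB HP1βKO and 6.08 and 6.31 in EB HP1αKO, against 6.67 and 6.66 in EB WT, also passed on the 6 EB arrays, with differences of -0.45 and -0.47 that were short of the threshold on 12 arrays (adjusted p = 0.43 and 0.61). In EB HP1αKO, Zfp938 (0.38) and Zfp961 (-0.45) passed on the 6 EB arrays as well (adjusted p = 0.036 and 0.018). The shared features of the stretch were higher in EB HP1βKO than in EB WT by 0.91 to 1.46, and in EB HP1αKO they differed from EB WT by -0.87 to 0.60.

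Of the 10 pluripotency markers, 4 were called higher in EB HP1βKO than in EB WT, among them Pou5f1 by 1.34 (adjusted p = 0.0011), and 2 were called lower in EB HP1αKO, among them Pou5f1 with a difference of -1.19 (adjusted p = 0.0050). In EB HP1αKO the 10 markers had both signs against EB WT. Tdgf1, Klf2 and Fgf4 were higher by 0.31, 0.27 and 0.24, as Zfp991 was by 1.01, and none of these differences was called. The other markers were lower. The part of the marker levels in these differences was not tested.

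**Figure D4:**
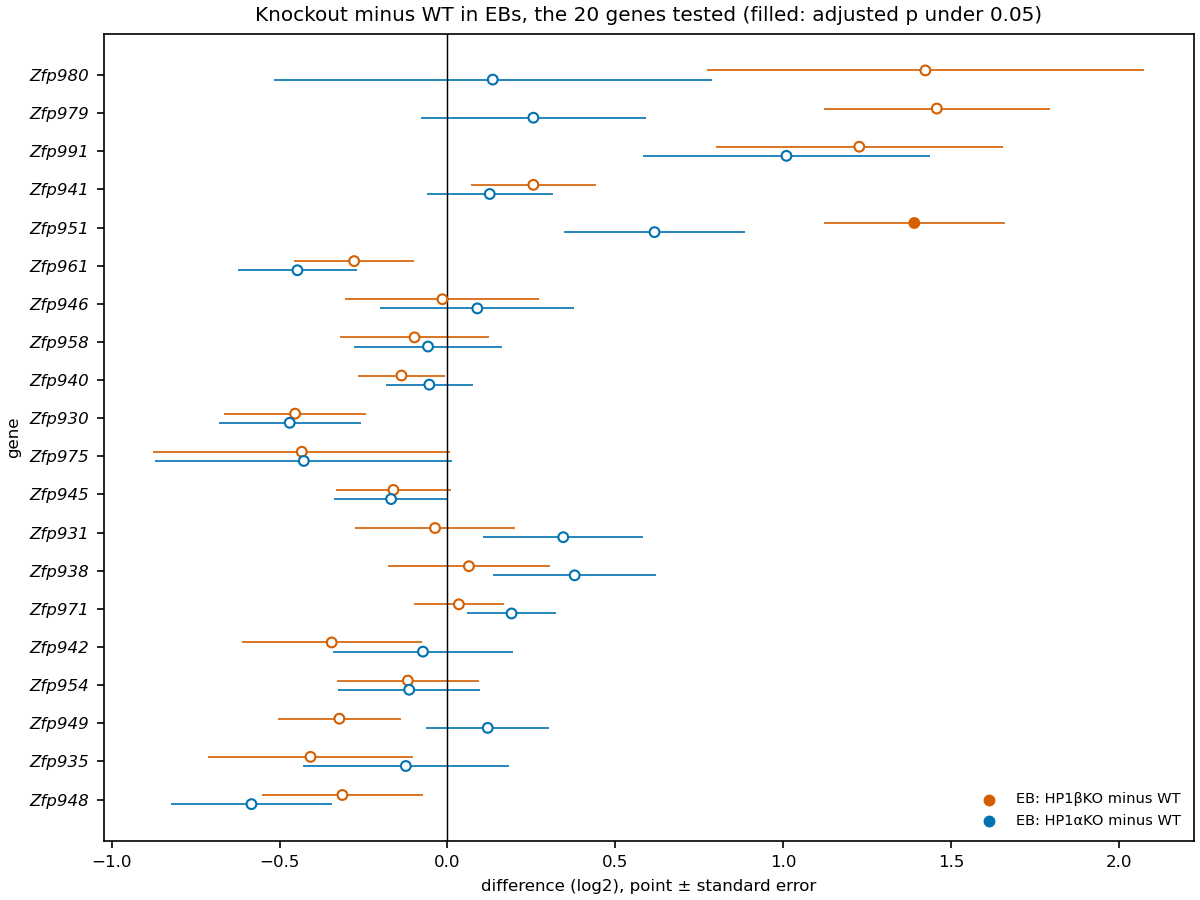
Difference from EB WT (log2, point ± SE) of the 20 members tested in EB HP1βKO and EB HP1αKO, in the row order of the plot of EB minus ESC differences. The filled point, Zfp951 in EB HP1βKO at 1.39, is the only one past an adjusted p of 0.05, beside Zfp979 (1.46), Zfp980 (1.42) and Zfp991 (1.23).

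A second set of 3 shared features names Zfp975. The feature naming Zfp936 and Zfp975 with EU599041 had 7.16 and 6.81 in EB HP1βKO, 5.65 and 5.58 in EB HP1αKO, and 6.19 and 6.18 in EB WT, against 8.23 and 8.98 in ESC HP1βKO, 8.49 and 8.45 in ESC HP1αKO, and 7.83 and 8.72 in ESC WT. In this feature EBs were lower in every genotype and EB HP1βKO was above EB WT by 0.80, and the feature that also names Zfp976 had the same order. The third, shared with Gm2381 and Zfp976, had not: it gave 6.75 and 6.48 in EB HP1βKO, 5.67 and 5.79 in EB HP1αKO, and 6.62 and 6.90 in EB WT, against 7.18 and 7.88 in ESC HP1βKO, 7.43 and 7.77 in ESC HP1αKO, and 6.79 and 7.85 in ESC WT. There the EB HP1βKO minus EB WT difference was -0.15, and the EB WT and ESC WT values overlapped. Zfp975 on chromosome 7, the member with a feature of its own, had 6.22 and 5.19 in EB HP1βKO, 5.74 and 5.68 in EB HP1αKO, and 5.51 and 6.77 in EB WT, against 5.91 and 5.93 in ESC HP1βKO, 5.99 and 6.13 in ESC HP1αKO, and 5.70 and 6.58 in ESC WT. Its own feature did not show the order of the first 2 shared ones, and none of the 3 was tested.

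The same comparison was made in ESCs. No member and no other gene was called in ESC HP1βKO or in ESC HP1αKO against ESC WT (0% of 10880 in both, limma). At an unadjusted p under 0.05 there were 1 member (Zfp951) and 638 genes (5.86%) in ESC HP1βKO, and 0 members and 116 genes (1.07%) in ESC HP1αKO. Zfp951 entered the test only through the library labelled ESC HP1βKO 2, the high side of this comparison, so its place in that count supports nothing. Zfp980, Zfp979 and Zfp991 differed from ESC WT by 0.12, -0.39 and 0.32 in ESC HP1βKO, and by -0.14, 0.00 and 0.13 in ESC HP1αKO. The 2 ESC WT libraries differed in these genes by 1.03 to 1.64, more than any of these differences, so smaller effects were not detectable with 2 libraries each. Leaving out the 2 opposing libraries left 1 library in ESC WT and 1 in ESC HP1αKO, so no calls are given for that fit here. Zfp991 was then 1.11 higher in ESC HP1βKO than in the library labelled ESC WT 1 alone. The WT libraries also set the sign: without the library labelled ESC WT 2, Zfp979 was 0.13 higher in ESC HP1βKO.

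Whether the EB minus ESC difference itself differed between genotypes was tested next. No member was called, where 1.3% of all genes were for HP1βKO against WT and 0.23% for HP1αKO against WT, and 1 and 0 of 20 members had an unadjusted p under 0.05, as did 11.2% and 5.65% of all genes. That member was Zfp979, whose EB minus ESC difference was 1.85 ± 0.48 less negative in HP1βKO than in WT (adjusted p = 0.11). For Zfp980 and Zfp991 the values were 1.31 ± 0.92 and 0.91 ± 0.61 (adjusted p = 0.71 and 0.70). The smaller fall of these genes in HP1βKO was thus not shown to differ from that in WT. Without ESC WT replicate 1, Zfp979 and Zfp991 were called for HP1βKO, which makes 2 members.

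Partners of KRAB zinc finger proteins were set beside the members, in a list that also holds Zfp57 and Zfp809, members of that protein family. Of the 17 genes listed, 16 were measured. In EBs of HP1βKO, HP1αKO and WT, 3, 5 and 4 of them fell and 0 rose, beside the 15.1%, 16.5% and 14.2% of all genes that fell. Zfp57 is among the falls in all 3 genotypes and Zfp809 among those in HP1αKO and WT, so the counts are not of co-repressors alone. Zfp57, a KRAB zinc finger protein of imprinted loci, had 7.92 and 7.91 in EB HP1βKO, 7.58 and 7.25 in EB HP1αKO, and 7.51 and 7.50 in EB WT, against 8.76 to 10.32 in ESC libraries, with differences of -1.36, -2.22 and -2.12 in HP1βKO, HP1αKO and WT. Zfp809, a KRAB zinc finger protein that silences murine leukaemia virus, fell by 1.15 in HP1αKO and 1.08 in WT. Trim28, the co-repressor that KRAB domains recruit, fell by 0.57 in HP1αKO and 0.58 in WT and stayed bright, at 10.98 to 11.20 in EB libraries and 11.31 to 11.80 in ESC libraries. Morc3, which acts with this machinery at retrotransposons, fell in all 3 genotypes by 0.98 to 1.38. None of the 16 was called in either knockout against WT in EBs or ESCs. No relation between the partners and the chromosome 4 members was tested.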

How the data were processed

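Array images were processed by the authors with RMA in Affymetrix Expression Console, per the submitters' processing notes, and the deposited values are log2 signals. RMA corrects background, quantile-normalizes and summarizes probes, so arrays are already on a common scale and small differences of dim genes are compressed. The sources used here name neither software versions nor a genome build. The identifiers match the annotation of the Mouse Gene 1.0 ST array, whereas the study's methods name an exon array. Of 35556 features, 21789 carry 1 gene symbol and were used, and 1621 carry several. Features of several genes and the 12146 without a symbol were not tested. All 34 members matched the reference table by gene number. The precision is limited by the number of arrays, 2 per group.

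Differences were fitted on the log2 scale with limma 3.58.1 in R 4.3.3, with a mean for each of 6 groups over 12 arrays, on the 10880 genes above a signal of 45 on at least 1 array. P-values were two-sided, moderated by empirical Bayes and adjusted by Benjamini-Hochberg per comparison, and 0.05 was the threshold. The comparisons were EBs against ESCs in each genotype, each knockout against WT in each state, and the difference of the EB minus ESC difference between each knockout and WT. The members, lists and tests were chosen with earlier results of these data known. The text names members that passed a test, members of the same cluster or level class, and the listed partners and markers. Alternatives were no floor, median centring of arrays, the mean of all features of a gene, fits on the arrays compared, array weights, a replicate block, and leaving out libraries. The script was tested on simulated data. Upstream sequences are those of RefSeq and were aligned with Biopython 1.88.

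The labels call the libraries biological replicates, but nothing at hand says that these came from different cultures.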

Additional observations from a re-analysis of the deposited data

Results flagged for a closer look

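Zfp945 on chromosome 17 had differences of opposite sign in the 2 knockouts, each smaller than its SE. It was 0.14 ± 0.17 higher in EB HP1βKO than in ESC HP1βKO (6.42 and 6.36 in EBs, against 6.17 and 6.34 in ESCs), and its difference between EB HP1αKO and ESC HP1αKO was -0.16 ± 0.17 (6.33 and 6.43 in EBs, against 6.46 and 6.62 in ESCs). The EB and ESC values did not overlap within either knockout, with 2 libraries a side, and the share of all genes for which this holds was not counted. The ESC value of 6.62 is from the library labelled ESC HP1αKO 2, whose Cbx5 opposed its label. Neither difference was called and the difference between them was not tested.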

How the results depend on the processing

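Over the 9 counts of members called, 84 of 108 alternatives stayed within 1.5 times the main count, and 376 of 382 alternatives to 35 differences of named members kept their direction. Zfp979 and Zfp980 were called lower in EBs in every alternative run for all 3 genotypes. EB WT against ESC WT had 8 members called, and 14 without a floor, 4 on the 4 arrays compared and 5 with array weights. EB HP1αKO against ESC HP1αKO had 7, and 12 without a floor. EB HP1βKO against EB WT had 1, and 2 with median centring, 3 on the 6 EB arrays, 4 with array weights, 2 with the replicate block, 2 with that block crossed in EB HP1βKO (added after seeing the data) and 3 without both libraries of opposing Cbx5. EB HP1αKO against EB WT had 0, and 4 on the 6 EB arrays, 6 with array weights and 1 without those libraries. Leaving out 1 library gave 2 to 7, 4 to 8 and 4 to 7 members for EBs against ESCs in HP1βKO, HP1αKO and WT, and 0 to 0 for EB HP1βKO against EB WT. For the difference of differences of HP1βKO it gave 0 to 2, the 2 without ESC WT replicate 1. Shares of all genes called are given above for the 6 EB arrays and for the fits without both libraries of opposing Cbx5. Without a floor, 9.76% and 8.08% of all genes were called lower in EBs in HP1αKO and WT. For the other alternatives no share of all genes is given. Their counts show how the calls depend on the fit and do not set the members against all genes. Differences that were not called changed sign in 6 cases. Leaving out 1 library gave -0.10 to 0.37 for Zfp980 in EB HP1αKO against EB WT, negative without EB WT replicate 2. In ESC HP1βKO against ESC WT it gave -0.71 to 0.94 for Zfp980 (-0.71 without ESC WT replicate 1, -0.61 without ESC HP1βKO replicate 2), -0.47 to 1.11 for Zfp991 (negative without ESC WT replicate 1) and -0.91 to 0.13 for Zfp979 (0.13 without ESC WT replicate 2, and 0.13 without both opposing libraries). The cause was not tested. Replicate differences correlated by number between groups at 0.30 to 0.50 in ESCs and at -0.45 to 0.11 in EBs, so the numbers were not taken as pairs, and the block changed no other count by over 1.5 times (9, 8 and 9 members for EBs against ESCs in HP1βKO, HP1αKO and WT).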
